A study of Rattus norvegicus with 12 samples.

Results

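Vinclozolin is a dicarboximide fungicide whose metabolites block the androgen receptor. In the rat study described here, pregnant females were injected with it, and the testes of 3 successive generations of embryos were profiled on Affymetrix rat expression arrays. The comparison of the third generation (F3) uses 4 of the 12 arrays of the series, chosen by their titles: 2 arrays of F3 control testis and 2 of F3 vinclozolin testis. All 31042 probe sets other than the manufacturer's controls were considered, and 21729 of them, above a signal filter, were tested.

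Both F3 groups were testes of embryonic day 16 (E16) male embryos, and each array held RNA of a pool of about 10 testes with the same treatment history. For the F3 control group, the pregnant founder females had received vehicle (sesame oil and DMSO) by intraperitoneal injection from pregnancy day 8 to 14. For the F3 vinclozolin group, the founders had received vinclozolin at 100 mg/kg/day over the same days. The F1 animals were mated to give F2 animals, which were mated again to give the F3 embryos, so that neither the F3 embryos nor the females that carried them were injected. The protocol text names control lines as the source of the mated F1 animals for the arrays titled vinclozolin too, and the groups here follow the titles. The labels give no strain. The F1 and F2 generations had 2 control and 2 vinclozolin arrays each, with controls of their own. Replicate pools are not stated to come from separate litters, so the p-values measure the spread between RNA pools.

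At E16 the rat testis holds Sertoli cells in cords around the germ cells, fetal Leydig cells that make testosterone and Insl3, peritubular and interstitial stroma, vessels and blood. Androgens from the fetal Leydig cells act later in fetal life on the ducts and buds that form the male accessory glands, and in the adult rat the ventral prostate secretes prostatein, a steroid-binding secretoglobin, as a main androgen-dependent product. Immediate early genes such as Fos and Egr1 are switched on within minutes of many stimuli and code for transcription factors. Each gene is read on these arrays by 1 or several probe sets, short-oligonucleotide groups that can lie in different exons or transcript ends.

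Markers of fetal testis were present on all 4 F3 arrays. Cyp17a1, an enzyme of androgen synthesis, read 3904.5 and 4015.5 in the F3 controls and 4585.6 and 4161.5 in F3 vinclozolin (signals are in the deposited linear intensity units). Amh, the Sertoli cell hormone, read 2894.1 and 3182.4 against 2594.5 and 2396.6, a difference that was not called. Dhh, a Sertoli cell signal, read 190.5 to 237.5. Eif2s3y and the brighter Uty probe set, both Y-linked, read 192.9 or more on each array, while the 4 Xist probe sets stayed at 6.5 or below. The testis-determining gene Sry read 5.4 to 7.6.

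The 4 arrays had been scaled to the same trimmed mean. Replicates of a group correlated at 0.993 (control) and 0.987 (vinclozolin), and their typical replicate SD on the log2 scale was 0.130 and 0.177. The 5′ to 3′ signal ratio of beta-actin, a measure of RNA integrity, was 0.453 ± 0.016 (SD, n = 2) in the F3 controls and 0.378 ± 0.025 (SD, n = 2) in F3 vinclozolin, without overlap. The same ratio of Gapdh was 0.965 ± 0.008 and 0.996 ± 0.038. In the F1 and F2 vinclozolin groups the actin ratio was lower still, at 0.171 ± 0.030 and 0.233 ± 0.020 (SD, n = 2 each), so the 2 F3 groups were closer to each other in this measure than those of F1 or F2. With the ratio as a covariate, 247 probe sets were called in place of the 676 below.

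Differences are vinclozolin minus control on the scale log2(signal + 16), ± SE from limma, and a probe set is called when its Benjamini-Hochberg adjusted p is under 0.05. In F3, 676 of 21729 probe sets were called (3.11%): 228 were higher in vinclozolin (1.05%) and 448 were lower (2.06%). The called probe sets differed by a median of 0.48 upward and -0.68 downward, while the median over all tested probe sets was -0.01. Only 19 of the higher and 57 of the lower calls passed 2-fold. The 2 groups overlapped at none of the 676, but non-overlap is common with 2 arrays a group. Of all 14224 genes on the array (brightest probe set), 28.5% had both vinclozolin arrays above both controls and 24.2% had both below. With 2 arrays a group, an exact permutation test of 1 gene cannot reach 0.05 (the smallest p it allows is 1 in 3), so each call rests on the spread shared across probe sets and across all 12 arrays. Leaving out 1 array lowered the count to 67 and 65 without F3 control 1 or 2, and to 213 and 147 without F3 vinclozolin 1 or 2. When each array was centred on its median instead, 319 probe sets were higher and 323 lower, so the excess of lower calls depends on the scaling.

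**Figure D1:**
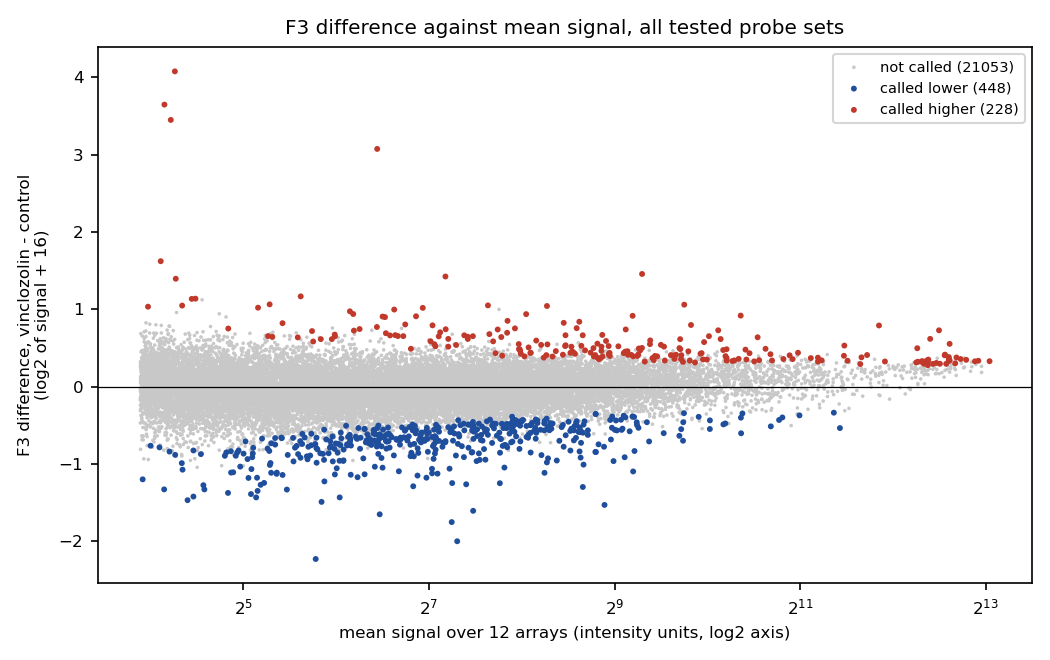
Difference between F3 vinclozolin and F3 control (log2 of signal + 16) for all 21729 tested probe sets against their mean signal over the 12 arrays (log2 axis). Grey points were not called, 448 blue points were called lower and 228 red points called higher. The 3 secretoglobin probe sets lie alone above 3.4 at the dim end, with Fos next at 3.07, and the lower calls lie mostly at middling signals.

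The largest differences of the F3 comparison were in secreted proteins of the rat ventral prostate. Scgb1d4, Scgb1d2 and Scgb2a1 code for the C2, C1 and C3 chains of prostatein. All 3 were near the bottom of the array's range in control testis and clearly present in both F3 vinclozolin pools. In RefSeq they stand in 1 run of 6 genes together with the transcribed pseudogene Scgb1d2-ps1, with 2 other entries, neither on the array, in between. Their promoters, from 250 bases before to 50 after the annotated start (RefSeq, GRCr8), are shown because these genes moved together. Capitals mark TATAAA in the first pair and TGTTCT, the half-site of the androgen response element, in the third.
Scgb1d4, chr1:215755113-215755412, plus strand: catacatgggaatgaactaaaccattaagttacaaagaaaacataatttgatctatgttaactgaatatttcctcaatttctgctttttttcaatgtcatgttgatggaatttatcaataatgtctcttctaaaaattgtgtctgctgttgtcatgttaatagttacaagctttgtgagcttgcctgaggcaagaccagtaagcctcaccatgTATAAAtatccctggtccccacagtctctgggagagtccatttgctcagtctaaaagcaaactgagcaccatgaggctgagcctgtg
Scgb1d2, chr1:215656661-215656960, minus strand: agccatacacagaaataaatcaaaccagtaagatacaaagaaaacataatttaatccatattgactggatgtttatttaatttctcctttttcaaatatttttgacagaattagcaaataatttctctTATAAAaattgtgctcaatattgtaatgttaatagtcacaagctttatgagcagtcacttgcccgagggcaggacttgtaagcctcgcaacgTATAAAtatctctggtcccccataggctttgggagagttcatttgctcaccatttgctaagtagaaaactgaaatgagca
Scgb2a1, chr1:215922501-215922800, plus strand: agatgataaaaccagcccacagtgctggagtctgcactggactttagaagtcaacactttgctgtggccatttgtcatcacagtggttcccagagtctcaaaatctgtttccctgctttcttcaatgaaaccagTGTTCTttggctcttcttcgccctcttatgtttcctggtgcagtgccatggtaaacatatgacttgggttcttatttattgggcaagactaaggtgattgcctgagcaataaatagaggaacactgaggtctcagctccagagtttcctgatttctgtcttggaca

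The Scgb1d4 and Scgb1d2 promoters were identical at 229 of 313 aligned columns (73.2%), while Scgb2a1 matched them at 48.8% and 45.7%. Searched on both strands, TATAAA began at -37 in Scgb1d4 and at -122 and -30 in Scgb1d2, and 14.2% of the 33469 RefSeq promoters of this length hold it. The half-site TGTTCT lay at -116 to -111 in Scgb2a1, and 20.7% of promoters hold one. The full palindrome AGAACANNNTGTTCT, which contains that half-site, was in none of the 3 windows and in 0.0149% of all promoters. A match describes the letters and is not evidence of binding.

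Scgb1d4 read 0.4 and 0.6 in the F3 controls and 239.1 and 287.7 in F3 vinclozolin. Scgb1d2 read 4.2 and 2.7 against 208.0 and 248.5. Scgb2a1 read 4.1 and 1.5 against 166.6 and 213.5. Both treated pools were high for every chain and the groups were far apart. The differences were 4.08 ± 0.19 (adjusted p = 3.17e-08), 3.65 ± 0.22 (adjusted p = 3.03e-07) and 3.45 ± 0.27 (adjusted p = 7.27e-06). All 3 stayed called when any one of the 4 F3 arrays was left out. They passed the signal filter only through the 2 F3 vinclozolin arrays, and leaving out the dimmest 50% of probe sets removes them from the test.

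The signal filter removed further accessory gland genes, so every gene of the list was also read without it. Sbp, which codes for the spermine-binding protein of the ventral prostate, read 5.4 and 7.1 in the controls and 82.0 and 94.3 in vinclozolin. Andpro, an androgen-regulated protein gene, read 0.1 and 0.1 against 52.0 and 59.6 on its clearest probe set. Klk1c9, a kallikrein-family protease, read 2.7 and 2.4 against 21.7 and 26.3. In each of these the 2 vinclozolin pools lay above both control pools, as in 28.5% of all genes on the array. Of the 4 Andpro probe sets, 2 more followed, one from 0.2 in both controls to 44.8 or more, and one from 0.2 and 1.8 to 33.2 and 44.3. The fourth stayed at 0.6 and 0.3 against 0.9 and 8.1. Some of these probe sets are of types that can bind related transcripts, so the family members cannot be fully separated.

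With no filter, 6 of the 17 list genes on the array were called higher (35.3%), against 0.485% of all 14224 genes and 0.361% of the 31042 probe sets. This alternative was chosen after seeing the data, and the list with earlier results of these data known. The shares here therefore describe the list and do not test it. Both F3 vinclozolin arrays exceeded each of the other 10 arrays for the same 6 of 17 genes, against 599 of 14224 genes (4.21%) on the whole array. Asked the other way, chosen after the values were seen, 7 genes on the array had both F3 vinclozolin values of signal + 16 at more than 2-fold the highest of the other 10 arrays. They were Scgb1d4, Scgb1d2, Scgb2a1, Scgb1d2-ps1, Sbp, Andpro and Klk1c9. Scgb1d2-ps1 is not on the list and read 0.6 and 0.9 against 63.0 and 77.7. Cyssl1, also off the list, came close at 1.5 and 9.1 against 51.4 and 63.7.

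Other products of the accessory glands did not follow. Probasin (Pbsn), an androgen-regulated prostate protein, read 4.1 and 0.9 against 10.6 and 5.5. Msmb stayed at or below 2.3 and Acp3 at or below 2.8 on the 4 arrays. Tgm4, Spink1, Svs4, Azgp1, Scgb1a1, Scgb3a1 and Tmprss2 were not called without the filter. Svs5, a seminal vesicle protein gene already bright in control testis, read 627.6 and 684.1 against 923.2 and 791.0, without overlap but not called. Its F1 and F2 differences were 0.58 and 0.57.

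The same chains were slightly up in the earlier generations. In the 4 F1 and F2 vinclozolin arrays Scgb1d4 read 13.1 to 22.4, against 0.4 to 9.3 in all 6 controls. Scgb1d2 read 10.2 to 24.2 against 0.6 to 5.2, and Scgb2a1 9.8 to 26.4 against 1.3 to 7.0. None of these ranges overlapped, though all lie near the dim end of the array. How many of all genes show such separate ranges was not counted. Of all tested probe sets, 23.1% were called in F1 and 14.3% in F2, in either direction. Sbp overlapped its controls, at 1.1 to 11.2 against 1.5 to 7.1. Andpro read 0.4 to 6.3 against 0.1 to 0.3 on its clearest probe set. The F3 difference exceeded the mean of the F1 and F2 differences by 3.30 for Scgb1d4 and 2.81 for Scgb1d2 (adjusted p = 1.07e-05 and 8.21e-05, limma). For Scgb2a1 it did so by 2.74 (adjusted p = 0.000828). These probe sets entered the test only through the F3 vinclozolin arrays. With the actin ratio as a covariate, the contrast had no call on any probe set.

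Markers of neighbouring tissue were read beside this. Of 29 mesonephros, epididymal duct and kidney genes on the array, 14 were tested. Only 1 was called, lower (Tjp3), against 1.51% of all genes lower. The list's summed signal was 1592.4 and 1612.4 in the controls and 1397.8 and 1455.4 in vinclozolin. Pax2, a duct and kidney regulator, read 15.3 and 9.7 against 4.8 and 3.9, and Cdh16, a kidney cadherin, 9.4 and 1.1 against 2.1 and 5.4. Adrenal genes gave no call in 4 tested (1 at an unadjusted p under 0.05, limma), with sums of 3261 and 3440.2 against 4392.2 and 4081.4. The adrenal list names Hsd3b1 and Dlk1, also on the Leydig cell list, and Nr0b1, also on the Sertoli cell list. Its sum therefore does not separate adrenal from testis cells. The accessory gland list itself summed to 706.1 and 779 against 1738.1 and 1791.8. In RNA of whole testes, fewer cells of a type and less RNA per cell cannot be told apart, and whether tissue beside the testis entered the pools was not tested.

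**Figure D2:**
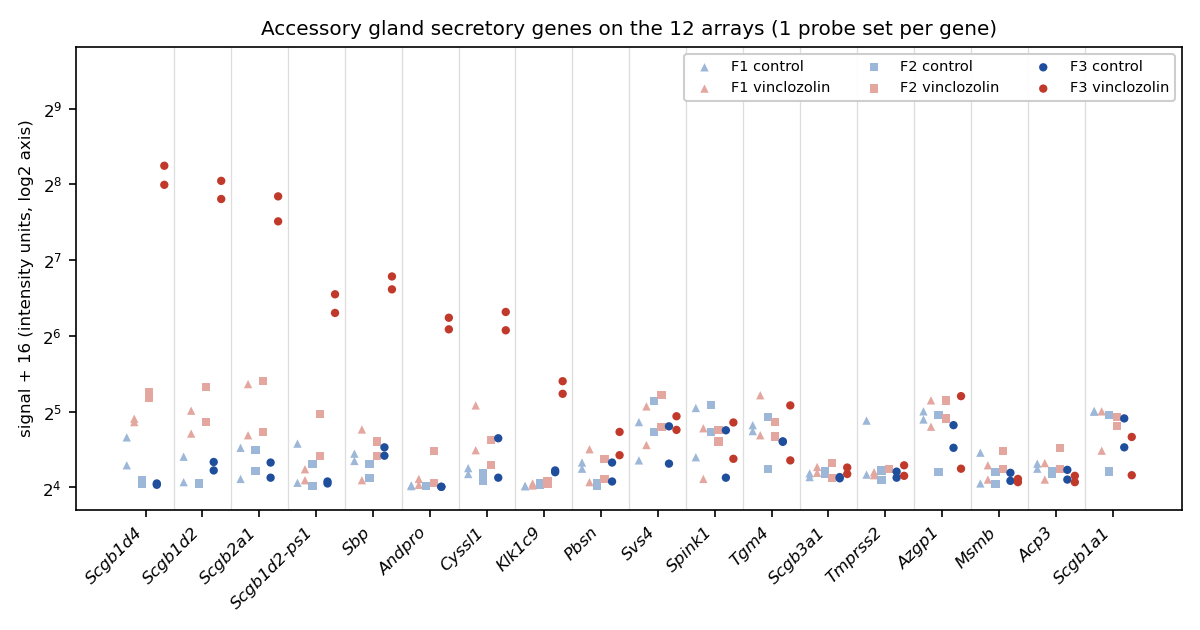
Signal + 16 (intensity units, log2 axis) on each of the 12 arrays for the accessory gland list, 1 probe set per gene, without the far brighter Svs5 and with Scgb1d2-ps1 and Cyssl1 added. Circles are F3 arrays, triangles F1 and squares F2, with vinclozolin in red and control in blue. The F3 vinclozolin pools stand above all other arrays for the 8 genes at the left and overlap the range of the other arrays in at least 1 pool for the others.

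Immediate early genes formed the next group. Of 39 tested, 8 were higher and none lower by the brightest probe set of each gene, against 1.22% of all 11293 genes higher. The list's median was 0.13 (all genes 0.01), so most members moved little. The promoter of Ier2 (RefSeq, GRCr8) is printed for the cyclic AMP response element TGACGTCA in capitals, found at -66 to -59 on both strands, which reads the same either way and occurs in 1.83% of promoters.
Ier2, chr19:40399123-40399422, plus strand: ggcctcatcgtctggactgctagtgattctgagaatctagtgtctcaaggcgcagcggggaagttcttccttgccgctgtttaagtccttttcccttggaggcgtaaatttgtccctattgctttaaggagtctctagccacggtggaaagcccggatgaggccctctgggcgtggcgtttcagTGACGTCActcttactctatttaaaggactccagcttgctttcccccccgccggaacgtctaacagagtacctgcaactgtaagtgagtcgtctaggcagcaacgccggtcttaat

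Fos, a subunit of the AP-1 transcription factor, read 28.2 and 36.3 in the controls and 328.5 and 459.4 in vinclozolin, a ratio of means of 12.2 (3.07 ± 0.29, adjusted p = 6.44e-05). Ier2 read 85.0 and 93.3 against 219.6 and 321.0 (1.42 ± 0.15, adjusted p = 0.000264). Egr1, a zinc-finger transcription factor, read 440.9 and 416.7 against 919.6 and 1574.2 (1.46 ± 0.17, adjusted p = 0.000505). In all 3 genes both vinclozolin pools lay above both controls, as in 28.5% of all genes on the array. The second vinclozolin pool was the higher of the pair. Fosb followed from a dim start at 0.4 and 8.6 against 40.8 and 51.2 (1.62 ± 0.35, adjusted p = 0.0224). Dusp1, a phosphatase that switches off MAP kinases, read 95.5 and 77.1 against 175.4 and 175.1 (0.91 ± 0.13, adjusted p = 0.00212), and its dimmer probe set was not called (0.12).

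Jun, the partner of Fos, was called on 2 of 3 probe sets, at 188.1 and 157.2 against 256.9 and 404.6 (0.85 ± 0.18, adjusted p = 0.0201) and at 0.54, and the third read 0.22. Dusp6, another MAP kinase phosphatase, was called on 2 of 3 as well, at 0.66 and 0.42, and its brightest read -0.01. Jund and Rgs2 were called at 0.34 and 0.39. Other members were not called, among them Nr4a1 (-0.09), Ier3 (0.08) and Junb, which read 46.2 and 29.1 against 37.7 and 85.3, with overlap. Leaving out F3 control 1, F3 control 2, F3 vinclozolin 1 or F3 vinclozolin 2 left the list with 4, 3, 5 and 4 calls, and the actin ratio as a covariate left 4. Fos, Egr1 and Ier2 were also higher in F1 (2.57, 0.84, 1.29) and F2 (1.83, 0.67, 1.08), with controls of their own. Dusp1 was called in F3 but neither in F1 (0.34) nor in F2 (0.19), and the contrast of F3 with their mean was called for it (0.64, adjusted p = 0.0397). The same contrast was called for the brightest Jun probe set (0.85, adjusted p = 0.0105), which is not the probe set with the F3 difference of 0.85. Its F3 difference was smaller than this contrast, so its F1 and F2 differences averaged below 0.

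Red cell genes were raised in part. Of 27 erythroid genes tested, 7 were higher and none lower, against 1.22% of all genes higher. Of these 27, 24 were above 0, against 5763 of 11293 of all genes, with a median of 0.29. Hba-a3, an alpha-globin gene, read 699.6 and 674.1 against 1269.9 and 1651.0 (1.06 ± 0.14, adjusted p = 0.00134). Ahsp, which keeps free alpha-globin stable, read 152.7 and 142.1 against 304.4 and 340.6 (1.05 ± 0.16, adjusted p = 0.00287). Both pools of vinclozolin were the higher for each, as in 28.5% of all genes on the array. The beta-family globins Hbg1 (0.80), Hbb (0.62) and Hbe1 (0.33), the embryonic zeta-globin Hbz (0.61) and Alas2 (0.46), the first enzyme of red cell heme synthesis, were also called. Summed over the list, the signal was 14982.8 and 15385.5 against 20404.2 and 22444. The list held 2, 2, 3 and 2 calls without F3 control 1, F3 control 2, F3 vinclozolin 1 and F3 vinclozolin 2, and 3 calls with a median of 0.16 with the actin ratio as a covariate.

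**Figure D3:**
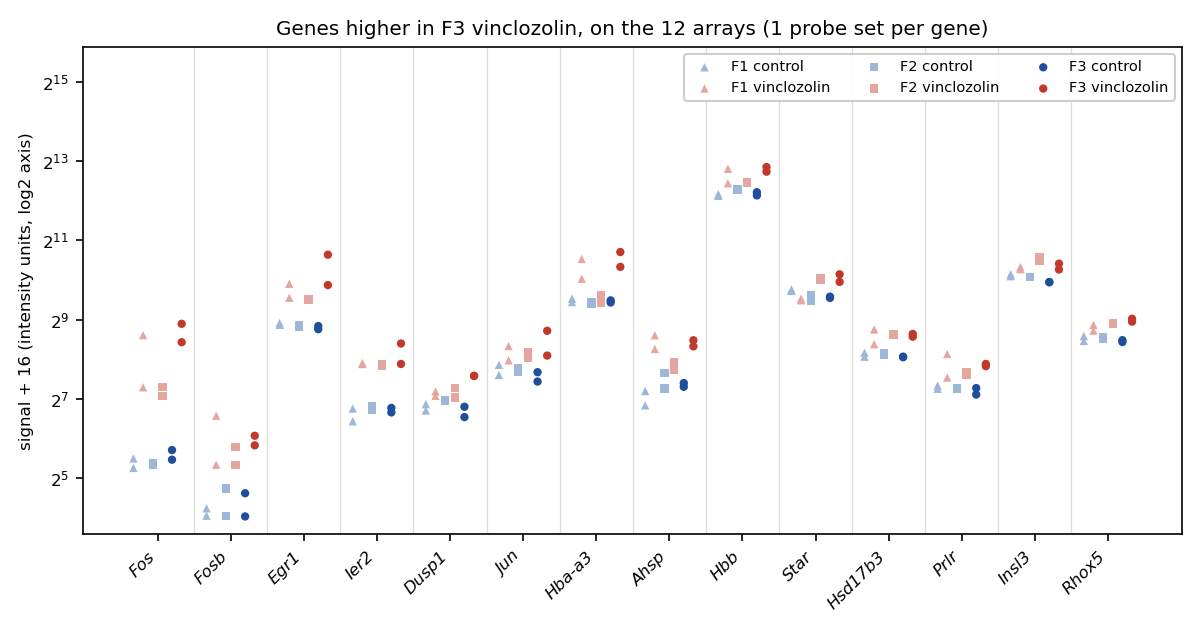
Signal + 16 (intensity units, log2 axis) on each of the 12 arrays for 14 genes called higher in F3, 1 probe set per gene. Circles are F3, triangles F1 and squares F2, with vinclozolin in red and control in blue. Both F3 vinclozolin points lie above both F3 control points in every column, with Fos the widest gap, and the F1 and F2 vinclozolin points of Fos, Ier2 and Egr1 lie above their controls as well.

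Among somatic cells of the testis, Leydig cell genes gave 4 higher calls of 24 tested, against 1.22% of all genes higher, with a median of 0.15. Star, which carries cholesterol into mitochondria, read 731.2 and 748.4 against 1112.8 and 973.3 (0.48 ± 0.09, adjusted p = 0.00948), and its other probe set read 0.12. Hsd17b3, the last enzyme of testosterone synthesis, read 251.8 and 249.2 against 382.4 and 363.4 (0.54 ± 0.11, adjusted p = 0.0204). Insl3, the hormone of testis descent, read 969.9 and 967.9 against 1212.3 and 1344.7 (0.39 ± 0.08, adjusted p = 0.0183). Prlr, the prolactin receptor, was called at 0.66 on 1 of 3 probe sets. None of the 4 overlapped between groups, and 28.5% of all genes on the array were likewise higher without overlap. The list held 1 call without F3 vinclozolin 1 or 2, and lost its calls without F3 control 1 or 2 and without the mean-variance trend of the fit. With the actin ratio as a covariate it held 1 call and its median was 0.08.

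The steroid enzymes between them did not move as a block. Cyp11a1 read 2366.3 and 2452.8 against 2685.9 and 2431.7, with overlapping groups, and Cyp17a1 differed by 0.14 ± 0.08 without a call. Hsd3b1, also counted with the adrenal genes, differed by 0.35 ± 0.11 (adjusted p = 0.0945). In the other direction, a dimmer probe set of Por, the electron donor of these enzymes, fell from 292.3 and 274.4 to 151.2 and 145.4 (-0.87 ± 0.14, adjusted p = 0.00518), while its brighter one was at -0.27. Nr5a1, a master regulator of gonadal steroid genes, fell on a dimmer probe set from 87.2 and 92.9 to 43.7 and 44.8 (-0.82 ± 0.20, adjusted p = 0.0415), and its other probe set was at -0.17. For both genes the call thus rested on 1 of 2 probe sets.

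Sertoli cell genes gave 1 call in 21, higher, against 1.22% of all genes higher. It was Rhox5, an androgen-regulated homeobox gene, at 341.2 and 329.7 against 477.8 and 502.8 (0.53 ± 0.09, adjusted p = 0.00735). In the list of steroid receptors and androgen response, Ncoa4, a receptor coactivator, was higher as well (0.35), while Fkbp5, a receptor cochaperone that androgens and glucocorticoids induce, was lower at 461.0 and 480.8 against 361.2 and 367.7 (-0.36 ± 0.09, adjusted p = 0.0441). Ncor1, a corepressor, was lower on 1 of 3 probe sets (-0.81). That list gave 2 higher and 1 lower call in 21 tested, against 1.22% of all genes higher and 1.51% lower. Of its higher calls, 1 is also on the Sertoli list. The Fkbp5 call was lost after median centring, with no filter and with the actin ratio as a covariate. With that covariate the steroid receptor list held 1 call, higher.

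Germ cell genes gave 1 lower call in 18 by the brightest probe set, against 1.51% of all genes lower. It was Sall4, a transcription factor of pluripotent and germ cells, at 250.9 and 265.6 against 150.1 and 136.3 (-0.79 ± 0.15, adjusted p = 0.0113). It was level in F1 and F2 (-0.03 in each), and the contrast of F3 with their mean was called (-0.75, adjusted p = 0.0324). That contrast had no call with the actin ratio as a covariate. The F3 call of Sall4 was also lost with that covariate and without the mean-variance trend, which left the germ cell list with no call. The list's median was -0.05, and 0.10 with the covariate. Sox2 and Elavl2 were each lower on 1 of 3 tested probe sets (-1.49 and -0.86). The other Elavl2 probe sets, far brighter, stood at 0.05 and 0.04. Summed signal of the germ cell list was 3990.6 and 3953.3 against 4059.1 and 3975.1.

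Some extracellular matrix genes were lower. Of 56 tested, 7 were lower and none higher, against 1.51% of all genes lower. Only 12 of the 56 lay above 0, against 5763 of 11293 of all genes, with a median of -0.13. Lamb2, a laminin chain of basement membranes, read 334.4 and 312.8 against 223.0 and 194.3 (-0.60 ± 0.11, adjusted p = 0.00945). Hspg2 (perlecan), a basement membrane proteoglycan, read 219.4 and 214.5 against 119.3 and 137.5 (-0.69 ± 0.15, adjusted p = 0.0242). Fbn2, a microfibril protein, read 414.7 and 418.5 against 304.6 and 248.3 (-0.57 ± 0.10, adjusted p = 0.00967). Both vinclozolin pools lay below both controls for all 3, as in 24.2% of all genes on the array.

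Col1a1, Loxl2, Mmp14 and Nid1 were the other lower matrix calls, at -0.54, -0.58, -0.46 and -0.40. Several of them disagreed between probe sets: the second Col1a1 probe set read -0.10, that of Loxl2 -0.02 and that of Mmp14 -0.07. Lamb2 stood against 0.20 in F1 and 0.13 in F2, with an adjusted p of 0.00585 for the difference of F3 from their mean. The list held 2 calls without F3 vinclozolin 1 or 2, and lost its calls without F3 control 1 or 2. With the actin ratio as a covariate it held 1 call and its median was -0.06. Among stromal genes, Gli1, a hedgehog pathway target, was lower at 217.1 and 226.6 against 154.8 and 154.7 (-0.48 ± 0.10, adjusted p = 0.0176), against 0.08 and 0.09 in F1 and F2. Acta2, the smooth muscle actin of peritubular cells, was lower too (-0.55 ± 0.10, adjusted p = 0.00735).

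Dag1, the dystroglycan that links laminin and perlecan to the cytoskeleton, was lower on 3 of its 4 tested probe sets. They read 104.2 and 99.5 against 29.4 and 39.8 (-1.23 ± 0.19), 68.8 and 69.2 against 33.8 and 20.8 (-0.99 ± 0.18), and 415.7 and 438.6 against 209.1 and 224.5 (-0.93 ± 0.11, adjusted p = 0.000505). The brightest probe set of the gene went the other way without a call, at 635.5 and 680.8 against 676.3 and 734.2 (0.10 ± 0.13). The same 3 probe sets were lower in F1 (-2.08, -1.99, -0.79) and F2 (-1.55, -1.69, -0.97).

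This split within a gene was common among the lower calls. Lower calls fell on 322 genes, of which 102 had a single tested probe set and 193 had others tested but not called. Only 23 had 2 or more lower calls with none opposite, which is 10.5% of those with several probe sets. Higher calls fell on 157 genes, 107 of them with 1 tested probe set, and 3 had 2 or more: Jun, Dusp6 and Ctnnb1. Of the 251 lower-called probe sets of genes with several, 183 (72.9%) were not the gene's brightest, against 41.5% of the higher-called and 57.9% of all such probe sets tested.

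The brightest probe sets of those genes differed less. For the 164 genes with a lower call on a dimmer probe set, the lower calls had a median of -0.74, while the brightest probe set of the gene had a median of -0.15 and was itself called lower in 12 and higher in 3. It was below 0 in 122 of 164. For the 43 genes with a higher call and other tested probe sets not called, 39 of those 59 others lay above 0.

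**Figure D4:**
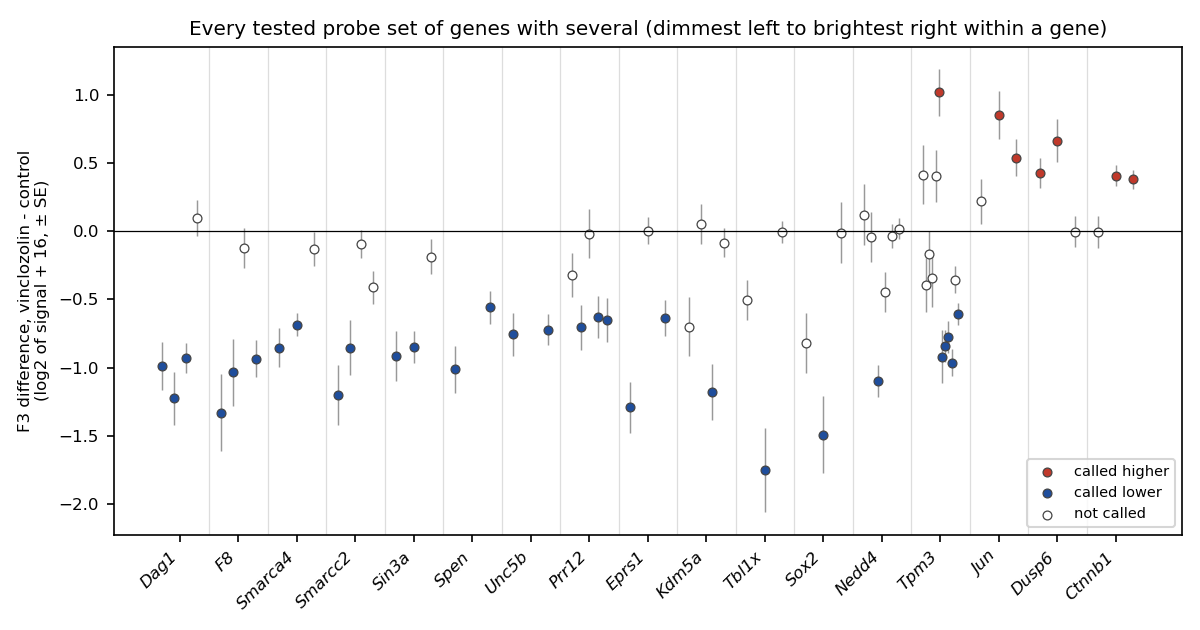
F3 difference (log2 of signal + 16, ± SE) of every tested probe set of 17 genes with several, ordered within each gene from the dimmest at the left to the brightest at the right. Filled blue points were called lower, filled red points higher and open points not called. Open points near 0 stand beside called points of the same gene in Dag1, Eprs1, Tbl1x and Nedd4, and both probe sets of Spen and of Unc5b were called lower.

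Genes with lower calls on several probe sets included chromatin regulators. Smarca4, the ATPase of the SWI/SNF remodelling complex, was lower on 2 of 3, at 532.9 and 572.8 against 336.9 and 338.2 (-0.69 ± 0.08, adjusted p = 0.000701) and at -0.85. Its partner Smarcc2 was lower on 2 of 4 (-1.20 and -0.85), and Sin3a, the scaffold of a histone deacetylase complex, on 2 of 3 (-0.85 and -0.91). In each of these 3 genes the brightest probe set was not called. Both probe sets of Spen, a transcriptional corepressor, were lower (-1.01 and -0.56).

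The chromatin list as a whole gave 3 lower calls in 53 by the brightest probe set (Kdm6b, Ehmt1 and Hdac4), against 1.51% of all genes lower. By any probe set 7 of its genes had a lower call, against 322 of all 11293 genes. The list's median was -0.10, and 15 of 53 lay above 0, against 5763 of 11293 of all genes. Kdm6b, a histone H3 lysine demethylase, read 337.9 and 348.5 against 217.5 and 153.2 (-0.85 ± 0.14, adjusted p = 0.00452). Ring1, a Polycomb ubiquitin ligase subunit, fell from 56.7 and 55.7 to 4.3 and 23.5 on 1 probe set, while its other read -0.28. Chd4 had a lower call at -0.84 beside a brighter probe set at -0.18. Kdm5a had one at -1.18 beside 3 others not called, at -0.70, 0.05 and, for the brightest, -0.09. The list lost its calls without F3 control 1, and held 1 without F3 control 2 and 2 without F3 vinclozolin 1 or 2. With the actin ratio as a covariate it held 1 call and its median was -0.02.

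F8, coagulation factor VIII, made by endothelial cells, was lower on 3 of 4 tested probe sets (-1.33, -1.04 and -0.94), and the fourth read -0.12. It was the single gene called among 27 endothelial genes, against 1.51% of all genes lower. Unc5b, a netrin receptor of vessels and axons, was lower on both its probe sets, at 268.7 and 304.9 against 159.3 and 175.5 (-0.72 ± 0.11, adjusted p = 0.00359) and at -0.76. Others with several lower probe sets were Ccar1, Sbf1, Mllt1, Eprs1, Prr12 (3 of 5), Fam193a, Setd5 and Acin1, a component of RNA processing complexes. Eprs1, a tRNA synthetase, read 247.9 and 251.6 against 95.8 and 89.6 on one probe set, 889.8 and 941.2 against 547.4 and 619.9 on another, and was level on the last (0.00).

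In 4 genes, probe sets were called in both directions: Cbx1, Csnk2a1, Rab14 and Tpm3. Tpm3, a tropomyosin of the actin cytoskeleton with many splice forms, rose on 1 probe set from 109.5 and 82.6 to 237.3 and 184.2 (1.02 ± 0.17, adjusted p = 0.00535). It fell on 5 of its 11 others, the most from 876.1 and 842.3 to 470.0 and 397.8 (-0.96 ± 0.10, adjusted p = 0.000183). A gene-level direction cannot be given for these 4.

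Signalling genes were called in both directions. In the Wnt list, 1 of 41 was lower and 1 higher by the brightest probe set, against 1.51% and 1.22% of all genes. Of the 41, 10 lay above 0, against 5763 of 11293 of all genes, with a median of -0.16. After quantile normalization the Wnt list held no call. Median centring left that list with the higher call alone, and it held at most 1 call when any one of the 4 F3 arrays was left out. Lef1, a nuclear partner of beta-catenin, was lower on its dimmer probe set at 187.5 and 205.5 against 100.7 and 96.1 (-0.89 ± 0.12, adjusted p = 0.0014), while the brighter read -0.05. Its repressor relative Tcf7l1 fell on 1 of 2 (-1.05) and Tbl1x, a corepressor subunit, on 1 of 3 (-1.75), with its brightest probe set level. Ctnnb1, beta-catenin itself, was higher on 2 of 3, at 5382.0 and 5604.3 against 6899.7 and 7422.7 (0.38 ± 0.07, adjusted p = 0.0104) and at 0.41. The first of these lost its call after quantile normalization.

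In the TGF-beta, BMP and IGF list, Bmpr2, a BMP receptor, read 121.4 and 156.8 against 67.5 and 46.2 (-1.10 ± 0.21, adjusted p = 0.0132). Smad7, an inhibitor of the pathway, was lower on 1 of 3 probe sets (-0.70) and Igf1r, the IGF1 receptor, on 1 of 2 (-0.47). Id2, a BMP target that blocks helix-loop-helix factors, was higher on 1 of 2 at 740.1 and 1150.9 against 1453.9 and 1464.5 (0.65 ± 0.15, adjusted p = 0.03), and its other probe set read -0.20. By the brightest probe set the list held 3 lower and 1 higher call in 43, against 1.51% of all genes lower and 1.22% higher. After median centring it held 2 lower and 1 higher. It lost its calls without F3 control 1 or F3 vinclozolin 2, and held 1 higher without F3 control 2 and 2 lower without F3 vinclozolin 1.

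Highly expressed housekeeping groups shifted upward by small amounts. Among cytosolic ribosomal protein genes 11 of 43 were higher, against 1.22% of all genes. Of the 43, 41 lay above 0, against 5763 of 11293 of all genes, with a median of 0.28. Rps6 was among the brightest, at 4750.1 and 5212.1 against 6353.8 and 6835.5 (0.40 ± 0.09, adjusted p = 0.0211). This list depended on the scaling: after quantile normalization its median was 0.01 and 1 member was called, lower, and with the actin ratio as a covariate the median was 0.12. The list held at most 1 call when any one of the 4 arrays was left out.

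Oxidative phosphorylation genes were higher in 7 of 69, against 1.22% of all genes. In this list 64 lay above 0, against 5763 of 11293 of all genes, and the median was 0.21. Of complex II, Sdhc was called at 811.5 and 765.1 against 1030.1 and 1146.2 (0.46 ± 0.09, adjusted p = 0.0133) and Sdhd on the dimmer of 2 probe sets (0.39). Atp5pb, Atp5pd, Cox5b, Cox6c, Ndufa4 and Ndufb11 were called at 0.34 to 0.38. After quantile normalization 3 of the 69 were called and the median was 0.13. With the actin ratio as a covariate the list held 2 calls and its median was 0.06, and it held at most 1 call when any one of the 4 arrays was left out. Mitochondrial ribosome genes were higher in 4 of 72 (median 0.17, against 1.22% of all genes higher), and 62 lay above 0. That list lost its calls with the actin ratio as a covariate (median 0.02) and when any one of the 4 F3 arrays was left out. Mrpl17 read 1288.2 and 1330.0 against 1662.0 and 1682.5 (0.35 ± 0.08, adjusted p = 0.0241). It differed from F1 (-0.04) and F2 (0.03), adjusted p = 0.0483 for that contrast, which had no call with the actin covariate. The lists themselves were also up in the earlier generations. Their F1 and F2 medians were 0.31 and 0.15 (ribosomal), 0.33 and 0.21 (oxidative phosphorylation) and 0.33 and 0.16 (mitochondrial ribosome). Of 39 proteasome genes, 1 was called, higher (Psmb5, 0.40), against 1.22% of all genes higher. The proteasome median was 0.18 (0.06 with the actin ratio as a covariate).

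**Figure D5:**
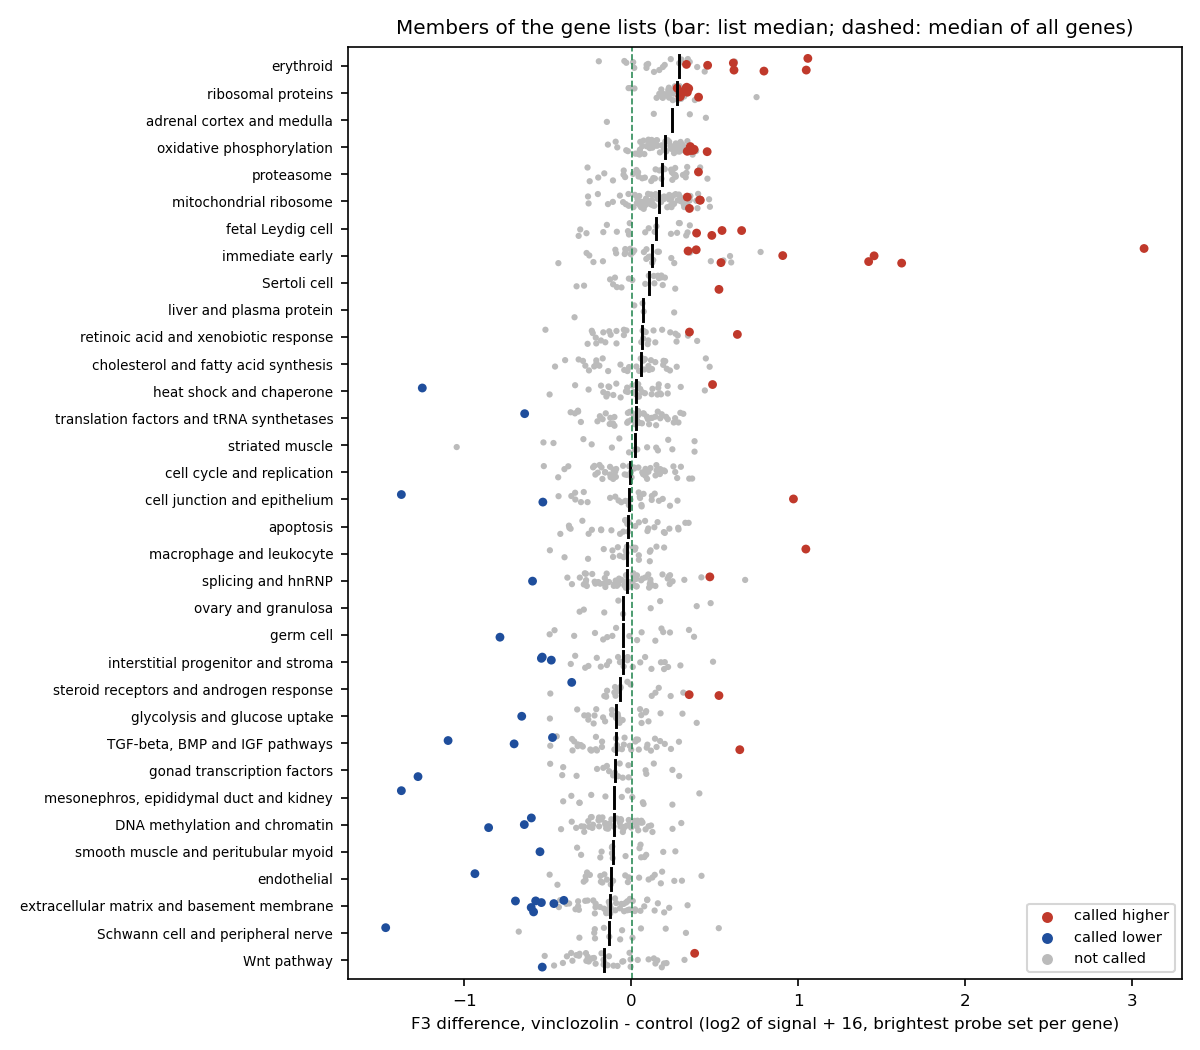
F3 difference (log2 of signal + 16, brightest probe set of each gene) of the tested members of 34 gene lists, without the accessory gland list (median 3.45), ordered by list median. Black bars are list medians, the dashed line the median of all 11293 genes (0.01), and coloured points the calls. Among these, the erythroid and ribosomal lists have the highest medians, Fos is the farthest point at 3.07, and the matrix list holds 7 lower calls and none higher.

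Stress and metabolic genes changed singly. Hspa4, a chaperone of the Hsp110 family, fell from 218.4 and 280.7 to 82.4 and 108.8 (-1.25 ± 0.15, adjusted p = 0.000701), while its difference was 0.51 in F1 and -0.76 in F2. Dnajb6, a co-chaperone, was higher at 1467.1 and 1530.5 against 2120.8 and 2095.5 (0.49 ± 0.07, adjusted p = 0.0027), against -0.27 in F1. Gsta4, a glutathione transferase that removes lipid aldehydes, read 1222.1 and 1297.3 against 1889.0 and 2047.4 (0.64 ± 0.09, adjusted p = 0.0027). Gstp1 was higher as well (0.35). Keap1, the sensor that restrains the Nrf2 antioxidant response, was lower on its dimmer probe set at 44.8 and 43.2 against 18.3 and 16.2 (-0.85 ± 0.17, adjusted p = 0.0163). Pfkl, the liver-type phosphofructokinase, was the single call of 27 glycolysis genes (-0.66), against 1.51% of all genes lower.

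The lists of cell cycle and apoptosis genes gave no calls, although Ccar1, a regulator of both processes that is on neither list, was lower on 2 of 3 probe sets. In the cell cycle list none of 56 passed in limma, 11 had an unadjusted p under 0.05, and the median was -0.01. The nearest were Birc5 (-0.40, adjusted p = 0.0535) and Aurkb (-0.38, adjusted p = 0.0599). Of 31 apoptosis genes none passed in limma and 4 had an unadjusted p under 0.05, with Mcl1 nearest (0.33, adjusted p = 0.0966). When only the F3 arrays were fitted, 5 cell cycle genes were higher and 4 lower, and 1 apoptosis gene was higher. Leaving out the dimmest 50% gave 2 lower cell cycle calls, and the actin ratio as a covariate 1 lower apoptosis call. None of 17 striated muscle genes was called (4 at an unadjusted p under 0.05), nor any of 9 ovary genes (1) or 5 liver genes (0), all in limma.

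Other large single-gene changes included members of small or little-changed lists. Tjp3, a tight junction scaffold of epithelia, fell from 33 and 45.8 to 5.4 and 5.0 (-1.38 ± 0.20, adjusted p = 0.00197), against 0.02 and -0.17 in F1 and F2. Cntnap1, a neural adhesion protein of myelinated axons, fell from 42.1 and 46.2 to 5.9 and 5.5 (-1.47 ± 0.33, adjusted p = 0.0267). Zfpm1, a cofactor of GATA factors, fell from 41.1 and 33.3 to 8.6 and 3.5 (-1.28 ± 0.20, adjusted p = 0.00359). Gjb2, a gap junction protein, rose from 76.7 and 52.4 to 175.4 and 111.6 (0.97 ± 0.21, adjusted p = 0.0232). Gosr1, a Golgi transport protein, rose from 306.7 and 204.7 to 510.3 and 557.4 on 1 of 3 probe sets (1.04 ± 0.14, adjusted p = 0.00147).

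Several of the largest changes lie on probe sets for which no gene symbol was at hand. Of the calls past 2-fold, 22 of 57 lower and 6 of 19 higher have none. The lowest 2, chosen after their values were seen, were 1381750_at, at 95.4 and 89.6 against 5.7 and 8.6 (-2.23 ± 0.17, adjusted p = 6.06e-06), and 1393649_at, at 255.4 and 261.7 against 48.5 and 56.9 (adjusted p = 1.5e-07). Both lay below the lowest probe set with a symbol (Tbl1x, -1.75). They were less low in F1 (-0.45 and -0.40) than in F2 (-1.87 and -1.51).

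The F3 calls were compared with those of F1 (5026 probe sets, 23.1%) and F2 (3118, 14.3%), which have their own control arrays. Of the 228 higher in F3, 120 (52.6%) were higher in F1, which is 5.87% of the F1 list, and 93 (40.8%) in F2, 9.11% of the F2 list. Of the 448 lower, 239 (53.3%) were lower in F1 (8.02% of that list) and 265 (59.2%) in F2 (12.6%). Of the higher calls 68 were shared with both and 73 with neither, and of the lower 197 and 127. The difference itself was called for 14 of those 73 and 39 of those 127, so the rest are not shown to be particular to F3. With the actin ratio as a covariate no probe set had that call, so the 14 and 39 cannot be told apart from RNA integrity.

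A test of the F3 difference against the mean of the F1 and F2 differences called 804 probe sets (3.7%), 579 higher and 225 lower. Median centring gave 435 higher and 345 lower. With the actin ratio as a covariate the contrast had no call, which holds for every gene named with it above and below. The calls included Nedd4, a ubiquitin ligase, of whose 6 tested probe sets 1 fell in all generations but least in F3, from 1324.0 and 1162.4 to 628.2 and 518.6 (-1.10 ± 0.12, against -3.32 in F1 and -2.81 in F2). The other 5 Nedd4 probe sets lay between -0.44 and 0.12 in F3. Crocc, a ciliary rootlet protein, fell in F3 from 45.7 and 51.7 to 17.7 and 10.4 (-1.12 ± 0.17, adjusted p = 0.00359), against 0.08 in F1 and 0.32 in F2. Mat2a and Cbfb each had a probe set that was not called in F3 but was lower in both earlier generations.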

How the data were processed

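Total RNA of 12 pools of E16 rat testes was hybridised to 1-colour Affymetrix arrays. The authors deposited 1 linear intensity per probe set and array, with no log scale, and the software that summarised the probes is not given in the sources used here. The deposited intensity values share a 2% trimmed mean per array, so no further scaling was applied. The 57 control probe sets and the 9313 with a mean signal under 14.8 (the lowest 30%) were left out. Group means of the 6 groups were fitted on log2(intensity + 16) over all 12 arrays with limma 3.58.1 (lmFit, eBayes with trend) in R 4.3.3, with Benjamini-Hochberg adjustment over the 21729 tested probe sets. Tests were checked on simulated data.

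Gene symbols came from the platform annotation: 20837 probe sets had 1 symbol, 425 several and 9780 none, and none was named from several. Lists were described by the brightest probe set of each gene. Named were the 15 highest and 15 lowest calls, genes with 2 or more calls in 1 direction (15 per direction), up to 5 called members of each list or else the 2 with the smallest p, and the 6 highest and 6 lowest of the F3 contrast with F1 and F2, with all probe sets of those genes. Members and lists were chosen with earlier results of these data known. Replicate numbers share no stated litter or day, and same-numbered F3 arrays did not deviate together (correlation 0.027), so arrays were not paired. Alternatives were other scalings, pseudocounts, filters, sample sets, covariates and leaving out each F3 array. The F1 and F2 groups were used only for contrast. No array value was replaced or imputed.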

Additional observations from a re-analysis of the deposited data

Results flagged for a closer look

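In 12 named probe sets the F3 difference departed from the mean of the F1 and F2 differences by a test of that contrast (limma, Benjamini-Hochberg adjusted over all probe sets). The secretoglobins Scgb1d4, Scgb1d2 and Scgb2a1 lay 3.30, 2.81 and 2.74 above it on the log2 scale. Nedd4 lay 1.97 above, Mat2a 1.67 (adjusted p = 0.000828) and Cbfb 1.65 (adjusted p = 0.00391). In these last 3 the F1 and F2 differences were strongly negative, at -3.32 and -2.81, -1.61 and -1.14, and -2.21 and -1.76.

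Below it lay Mapt, which codes for the tau protein, by -1.43 (adjusted p = 0.0336), Crocc by -1.32, Tjp3 by -1.30 (adjusted p = 0.0087), Gpihbp1, the endothelial anchor of lipoprotein lipase, by -1.20 (adjusted p = 0.0414), Hspa4 by -1.13 (adjusted p = 0.00504) and Srsf11, a splicing factor, by -1.11 (adjusted p = 0.0221). Mapt differed by -0.74 in F3 against 0.77 in F1 and 0.62 in F2, and Gpihbp1 by -0.49 against 0.99 and 0.42. Srsf11 differed by -0.61 against 0.60 and 0.39. The actin ratio of the F1 and F2 vinclozolin arrays was lower than that of F3, and with the ratio as a covariate the contrast had no call in limma (2536 probe sets at an unadjusted p under 0.05).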

How the results depend on the processing

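The count of F3 calls moved from 676 to 351 with no filter, 294 with 1 probe set per gene, 266 without the mean-variance trend and 247 with the actin ratio as a covariate, and to 1786 without the F1 arrays, 2262 with the F3 arrays alone and 2712 with array weights. Leaving out 1 F3 array gave 65 to 213. For the contrast of F3 with F1 and F2, 804 calls became 483 with no filter, 134 with 1 probe set per gene, 423 without the trend, 0 with the actin ratio as a covariate (limma; 2536 at an unadjusted p under 0.05) and 1486 with array weights, and leaving out 1 F3 array gave 96 to 418. Median centring (642 and 780), quantile normalization (577 and 833), pseudocounts of 1 (566 and 718) and 64 (731 and 796) and a 50% filter (728 and 857) moved neither count by over 1.5 times. A replicate block gave 713 and 812, and the numbers do not pair the arrays. The sign turned for Cbfb, from -0.33 to 0.0034 with the actin covariate and 0.0028 without F3 vinclozolin replicate 2 (-0.66 without F3 vinclozolin replicate 1), and for Hp, from 0.26 to -0.24 without F3 control replicate 2 (0.76 without F3 control replicate 1). Neither was called, and the cause was not tested. Of 130 named calls, 17 were kept under every alternative that tested them: Scgb1d4, Scgb1d2, Scgb2a1, Fos, Egr1, Ier2, Hba-a3, Gosr1, Lef1, Nedd4, Hspa4, Cct6a, Scaf11 and 1 probe set each of Dag1, Eprs1, Sin3a and Smarca4. The secretoglobins among them passed the signal filter only through the F3 vinclozolin arrays, and the 50% filter removed them from the test. The filter was set on all arrays and not redone when an array was left out. With 2 pools a group, single-gene precision is limited by the number of arrays.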
